A study of Mus musculus with 6 samples.

Results

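Collagen genes encode the triple-helical proteins of the extracellular matrix. All genes whose symbol is Col, a number, the letter a and a number were taken, and 43 of the 24389 identifiers in the files carry such a symbol. They fall into 11 fibrillar, 8 basement membrane, 6 beaded, 9 FACIT and 4 transmembrane collagen genes, with 5 others that belong to none of these classes. Col10a1, the short-chain collagen of hypertrophic cartilage, was not analysed here.

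RNA-seq libraries were made from dorsal pancreas of mouse embryos at E13.5, when the epithelial bud branches within its mesenchyme. The comparison set 3 knockout (KO) libraries, from a knockout of the gene for the RNA-binding protein Bicaudal C1 (Bicc1), against 3 wild-type (WT) libraries. Both groups were on a mixed C57BL/6 and ICR background, and the labels give no sex, litter or number of embryos per library. Nothing in the labels says that the libraries of a group came from separate litters, so the tests measure the spread between these libraries.

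Collagen chains assemble in threes into a helix whose sequence repeats glycine followed by any pair of residues, often proline and hydroxyproline. Fibrillar collagens form the cables of connective tissue, type IV forms the sheet of basement membranes, and beaded type VI forms microfibrils around cells. FACIT collagens sit on the surface of fibrils, and transmembrane collagens are anchored in the cell surface. In the embryonic pancreas, mesenchymal cells make most fibrillar collagen, and a basement membrane lies between mesenchyme and epithelium and around vessels.

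The repeat that defines the family is written in its exons, and an exon of the commonest size from the genes of the main fibrillar chains is shown for that reason. Each is a fully coding exon of 54 bases, read from the GRCm38 annotation in GENCODE release M21, 5′ to 3′ on the coding strand. Capitals mark the glycine codons, GGN, which return in frame every 9 bases.
Col1a1 exon 8: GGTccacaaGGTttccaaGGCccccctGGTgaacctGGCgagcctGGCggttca
Col1a2 exon 8: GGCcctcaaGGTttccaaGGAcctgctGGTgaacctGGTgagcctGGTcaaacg
Col3a1 exon 6: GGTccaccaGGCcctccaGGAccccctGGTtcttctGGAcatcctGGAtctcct

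Of 625 fully coding exons in the longest coding transcripts of the fibrillar genes, 305 (48.8%) were 54 bases long, and 84.0% had a length that is a multiple of 9. The share of 54-base exons was 26.3% in FACIT, 9.33% in transmembrane, 8.21% in beaded and 4.43% in basement membrane genes. All 11 fibrillar genes had a median exon of 54 bases, whereas the median in Col4a1, the first type IV chain, was 90. Among the other genes tested below, 401 of 100934 coding exons (0.397%) had this length. The in-frame glycine pattern was present in 452 of the 469 collagen exons of 54 bases and in 0 of those 401. These are properties of the annotation and describe the class, not the embryos.

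Values in parallel lists below run from library 1 to library 3. For Bicc1 itself they were 3.96, 4.91 and 4.48 in the knockout group, and 19.7, 19.5 and 18.2 in the wild type, with the groups far apart. The mean in KO was 23.3% of that in WT, and the gene fell by 1.89 on the log2(value + 1) scale (limma, Benjamini-Hochberg adjusted p = 0.000674). The values are a normalized signal of a kind not given in the sources used here, with a floor of 0.01 and library sums of 674295 to 716255. The reads behind a value are therefore unknown, and whether values are per gene length is unknown too. Libraries correlated at 0.981 to 0.997 across tested genes, on the log2 scale. KO 1, KO 2 and WT 3 had higher values for genes of high GC content, and KO 3, WT 1 and WT 2 had lower ones. The trend was thus positive in 2 of 3 KO libraries and in 1 of 3 WT libraries, unevenly over the groups.

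Of the 43 collagen genes, 31 had a mean of at least 1 over the 6 libraries and were tested. The means of the tested genes ran from 1.08 to 142.9. The 12 others had means of 0.0156 to 0.887 and no single value above 1.11. Among these were Col5a3 and Col24a1 of the fibrillar class, Col4a3 and Col4a4 of the basement membranes, Col6a4 and Col6a5 of the beaded class, and the FACIT genes Col16a1, Col20a1 and Col22a1. Col17a1, Col7a1 and Col28a1 complete them.

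**Figure D1:**
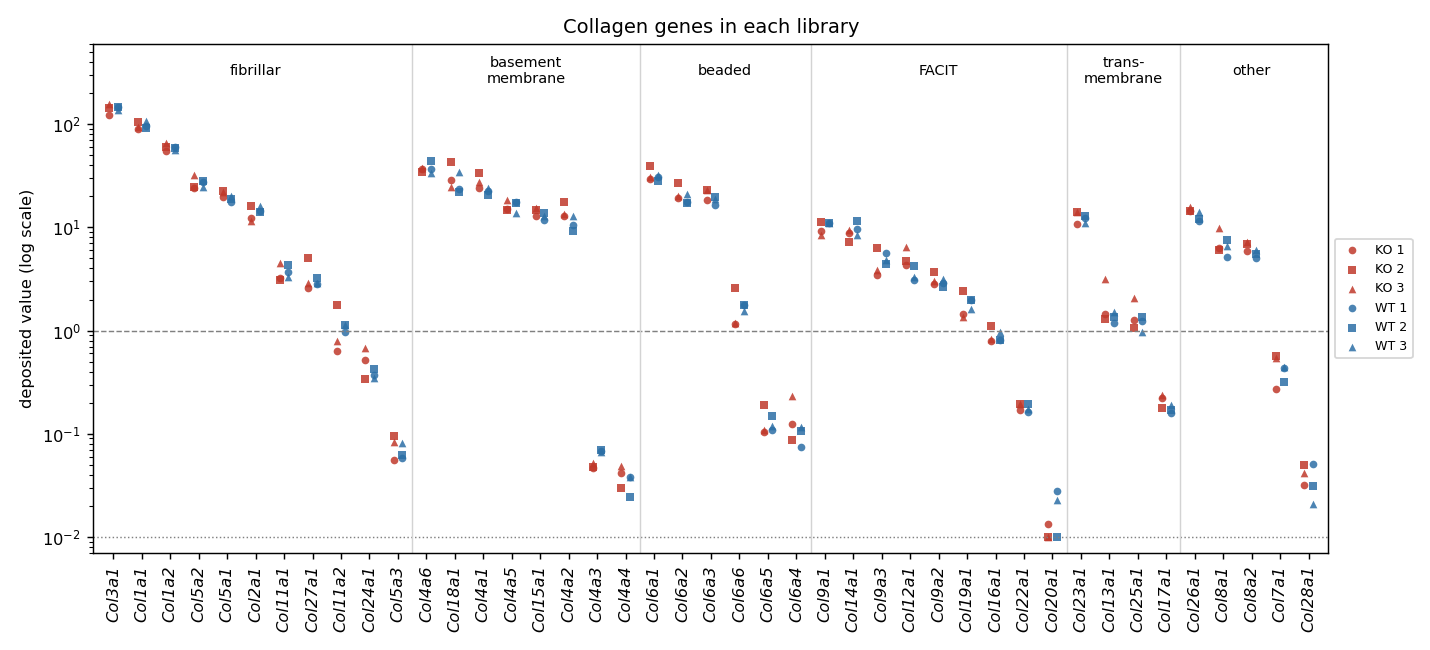
Deposited value of each of the 43 collagen genes in every library, on a log axis, grouped by class and ordered by mean within a class. Red symbols are the 3 KO libraries, blue symbols the 3 WT libraries, the dashed line is the mean of 1 needed for the test and the dotted line the floor of 0.01. In most genes the red and blue symbols overlap.

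Summed over all 43 genes, the collagen signal was 603, 714 and 692 in KO and 634, 643 and 648 in WT. The lowest and the highest sums were both in KO libraries, so the groups overlapped. The KO mean of 669 ± 58.5 was 104% of the WT value of 641 ± 7.11 (SD, n = 3 per group). The share of Col1a1, Col1a2 and Col3a1 in that sum averaged 44.5 ± 1.39% among KO libraries and 46.9 ± 0.849% among WT libraries (SD, n = 3 per group), and all KO shares lay below all WT shares. The share of the whole fibrillar class was 55.0, 53.5 and 56.8% in KO and 58.5, 57.5 and 56.8% in WT. The groups were apart by less than 0.1 percentage point, with KO 3 and WT 3 nearly level. A share falls when other members of the sum are higher, and these sums weight genes as the deposited scale does.

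No collagen gene passed the test between KO and WT. Across all 13911 genes tested, 2 passed (0.0144%), both lower in KO. The lowest adjusted p of a collagen gene was 0.469 and the highest 0.975 (limma, Benjamini-Hochberg). An unadjusted p under 0.05 was found for 4 of 31 collagen genes (12.9%), all higher in KO. It was found for 10.3% of all tested genes, 5.89% higher and 4.36% lower. The 4 were Col12a1, Col4a2, Col26a1 and Col4a1. This count was 0 without WT 1, 1 without KO 3, 1 without WT 2, 5 without WT 3 and 6 without KO 1 or KO 2. The shares of all tested genes were then, in the same order, 3.27, 13.1, 5.70, 22.3, 6.13 and 8.76%. The 6 without KO 2 were Col12a1 and, all lower in KO, Col2a1, Col6a6, Col9a1, Col9a3 and Col19a1.

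Each KO value was above each WT value in 3 collagen genes (Col12a1, Col26a1 and Col4a1) and below in 0, against 7.67% and 8.77% of all tested genes. In the 31 genes 19 means were higher in KO and 12 lower, and the median log2 difference was 0.10, against 0.01 over all tested genes. With 1 library left out the collagen median ran from 0.03 (without KO 2) to 0.19 (without KO 1). After each library was corrected for the GC content of its genes, 14 were higher and 17 lower, with a median of -0.02 for collagens and 0.03 for all genes. On the corrected values every KO library exceeded every WT library in 1 gene, Col12a1, and lay below in 2, Col2a1 and Col1a1. The share over all genes was not computed on those values. Without KO 1 the uncorrected count above was 9, and without WT 3 it was 8. Without KO 2 the count below was 5. Leaving out a library can only keep or raise such a count among the same genes. The shares of all genes with groups apart were not computed with a library left out, so these rises show nothing particular to collagens.

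**Figure D2:**
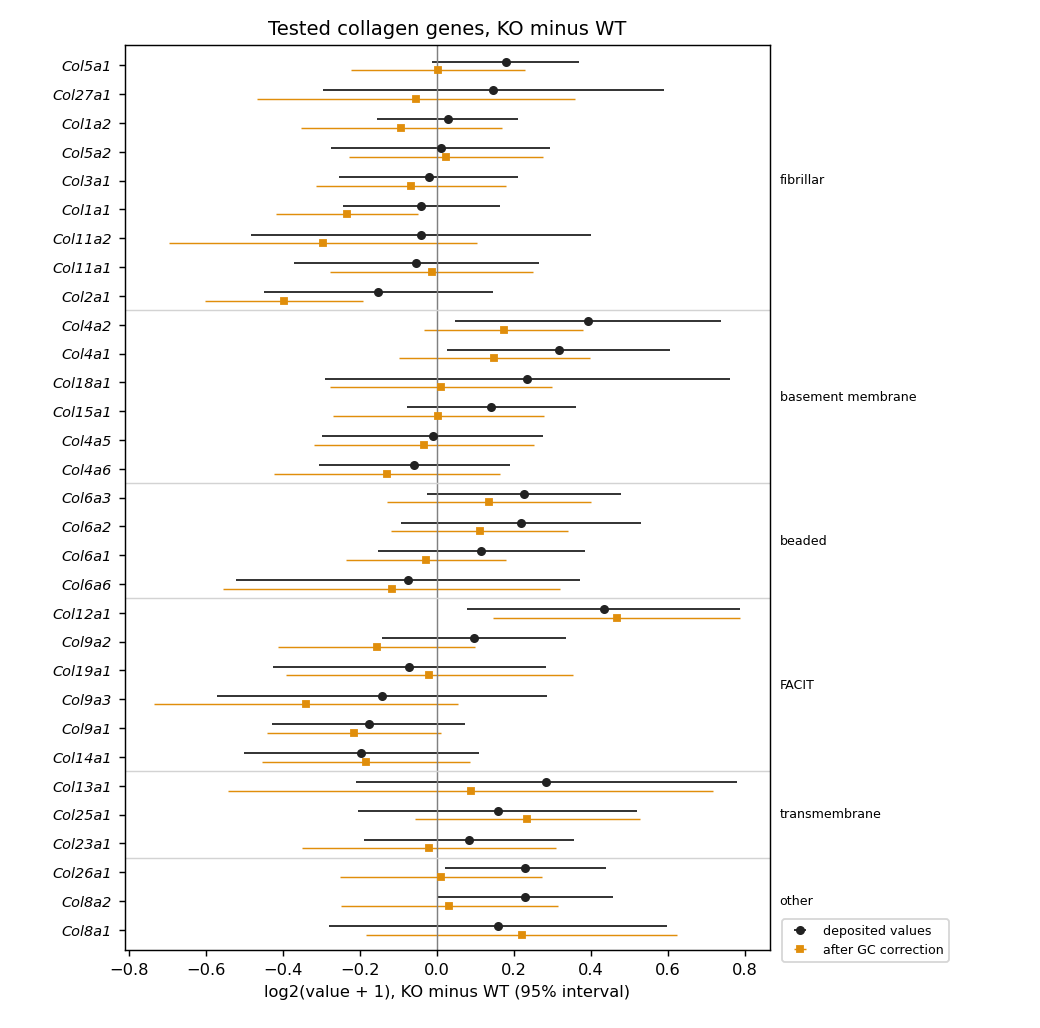
Difference between KO and WT in log2(value + 1) for the 31 tested collagen genes by class, with 95% intervals from limma. Black circles are the deposited values and orange squares the values after GC correction. The circles range from -0.20 to 0.43, and after correction several of the higher ones lie near 0.

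The fibrillar class showed no gene past the test and, on the deposited values, no gene with groups apart. Of 9 tested members 4 averaged higher in KO and 5 lower, with a median log2 difference of -0.02 before and -0.07 after GC correction. After correction 2 were higher and 7 lower. Col2a1 and Col1a1, whose groups were apart on the corrected values, had an unadjusted p under 0.05 there (limma). Both were lower in KO (22.2% of the class, where all tested genes gave 2.56% lower). The class summed to 331, 382 and 393 in KO and 371, 370 and 368 in WT, so the KO mean was 99.8% of that in WT. The 3 KO sums spanned both sides of the WT sums, which were nearly equal to each other.

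Col3a1, the single chain of type III collagen in distensible tissue, was 124, 144 and 159 in KO and 147, 148 and 136 in WT. KO 1 was the lowest library and KO 3 the highest. In log2 units, KO minus WT was -0.02 with a 95% interval of -0.25 to 0.21 (limma, adjusted p = 0.934). The sign turned to 0.04 when the direction of the GC trend was a term in the fit. Without KO 1 it was 0.07.

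Col1a1, the gene of the major chain of type I collagen, was 89.4, 104 and 94.1 in KO and 97.0, 92.5 and 107 in WT. The highest and the second highest values came from WT 3 and KO 2, and the groups overlapped. KO minus WT in log2 units was -0.04 with an interval of -0.25 to 0.16 (limma, adjusted p = 0.842). After GC correction it was -0.23 (adjusted p = 0.557). Without WT 3 it was 0.02.

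Col1a2, which encodes the partner chain of type I, was 54.9, 59.6 and 65.1 in KO and 59.8, 59.1 and 56.8 in WT. KO libraries were again both lowest and highest. This gave a log2 difference of 0.03 with an interval of -0.16 to 0.21 (limma, adjusted p = 0.888). It was -0.00064 when libraries were scaled by median ratios and -0.09 after GC correction, so neither type I gene had a direction that held.

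Type V collagen joins type I fibrils and limits their width. Its gene Col5a2 was 24.2, 24.4 and 32.4 in KO and 27.4, 28.1 and 24.4 in WT, with KO 3 high and the other KO libraries low. The log2 difference was 0.01 (interval -0.27 to 0.29, limma adjusted p = 0.975), and 0.02 after GC correction. It was negative under each of the 3 other scalings. The partner gene Col5a1 was 19.6, 22.6 and 22.1 in KO and 17.7, 18.8 and 20.0 in WT, and only KO 1 and WT 3 overlapped. Its log2 difference of 0.18 (interval -0.01 to 0.37, limma adjusted p = 0.469) was 0.00 after GC correction.

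Col2a1, the main fibrillar collagen gene of cartilage, was 12.3, 16.2 and 11.4 in KO and 14.3, 14.0 and 16.1 in WT. KO 2 was the highest library and the other KO libraries were the lowest. In log2 units, KO minus WT was -0.15 with an interval of -0.45 to 0.15 (limma, adjusted p = 0.597). After GC correction it was -0.40 (adjusted p = 0.388) with every KO library below every WT library. Of 5 cartilage markers found in the files, Matn1 and Matn3 had means under 0.1. Cnmd, also too low for the test, was 0.629 to 1.10 in KO and 0.354 to 0.680 in WT. The proteoglycan gene Acan was 7.71 to 11.6 in KO and 7.64 to 9.30 in WT. Hapln1, a link protein gene, was 2.25 to 2.82 in KO and 3.15 to 3.66 in WT. The summed cartilage list was 10.6 to 15.1 in KO and 11.5 to 13.4 in WT, and its part in the Col2a1 values was not tested.

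The remaining tested fibrillar genes were low. Col11a1, whose chain starts thin fibrils, was 3.10 to 4.48 in KO and 3.28 to 4.35 in WT (log2 difference -0.01 after GC correction). Col27a1 was 2.59, 5.10 and 2.88 in KO and 2.82, 3.21 and 2.89 in WT, so KO 2 alone stood out (-0.05 after GC correction). Col11a2 was 0.636, 1.79 and 0.8001 in KO and 0.962, 1.13 and 1.14 in WT, again with KO 2 the highest (-0.30 after GC correction). Its transcript had the highest GC content of the tested collagens, 62.9%.

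Among basement membrane collagens, 2 of 6 tested members, the pair Col4a1 and Col4a2, had an unadjusted p under 0.05, both higher in KO. Among all tested genes 10.3% had such a p, 5.89% higher in KO, and no member passed the adjusted test. After GC correction 0 members had such a p, where all tested genes gave 5.59% higher and 2.56% lower. Of 6 tested members 4 averaged higher in KO, and the median log2 difference was 0.19, which was 0.01 after GC correction. The class sum was 131, 158 and 137 in KO and 123, 128 and 132 in WT. KO 2 was the highest and KO 1 lay just under WT 3. The KO mean was 111% of that in WT.

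Type IV genes lie in head-to-head pairs, and the stretches between or across the starts are shown because the paired chains assemble with each other. Coordinates are those of the RefSeq-based promoter table for GRCm38.p6, not of the mm9 build named for the files. The Col4a5 start is the exception, as it is the first start in GENCODE M21, so the distance to Col4a6 mixes 2 annotations. The first exons of Col4a1 and Col4a2 share 22 bases on opposite strands at chr8:11312805-11312826 (plus strand shown). The annotated starts of Col4a5 and Col4a6 are 1308 bases apart on the X chromosome. For that pair, 250 bases before the Col4a6 start at chrX:141474077-141474326 (minus strand) and 216 bases before the first annotated Col4a5 start at chrX:141475169-141475384 (plus strand) are given. Capitals mark the CCAAT box and the GC box, which was searched as GGGCGG, each on either strand. The full 250-base window of Col4a5, counted in the next paragraph, has a GGGCGG match that is not wholly within the shorter stretch shown.
Col4a1 and Col4a2 shared bases: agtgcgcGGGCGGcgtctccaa
Col4a6 upstream: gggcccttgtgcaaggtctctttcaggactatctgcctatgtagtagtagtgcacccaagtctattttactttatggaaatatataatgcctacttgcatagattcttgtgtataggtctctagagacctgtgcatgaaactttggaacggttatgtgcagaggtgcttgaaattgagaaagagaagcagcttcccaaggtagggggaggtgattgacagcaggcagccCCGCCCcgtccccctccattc
Col4a5 upstream: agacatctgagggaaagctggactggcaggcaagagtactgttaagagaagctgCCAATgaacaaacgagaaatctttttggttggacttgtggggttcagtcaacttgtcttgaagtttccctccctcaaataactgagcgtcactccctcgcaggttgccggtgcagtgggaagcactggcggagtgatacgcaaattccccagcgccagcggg

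In the 250 bases upstream of a start, searched on both strands, GGGCGG was present in 59.5% of 37 windows of 34 collagen genes and in 32.7% of 32851 windows of all genes. The CCAAT box was present in 35.1% and 33.8%, and the TATA box, searched as TATAAA, in 10.8% and 12.4%. The median GC content of these windows was 59.2% for collagens and 52.4% for all genes. The windows of Col4a1 and Col4a2 had 74.4% and 73.6%, and that of Col4a6 had 47.6%. A match describes the letters of the window only.

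Col4a1 and Col4a2 encode the chains of the type IV network found in most basement membranes. Col4a1 was 23.92, 33.58 and 27.50 in KO and 22.64, 20.62 and 23.87 in WT. Each KO value was above each WT value, but KO 1 and WT 3 were almost equal. The KO mean was 127% of that in WT. KO minus WT in log2 units was 0.32 with an interval of 0.03 to 0.61 (limma, adjusted p = 0.469), and 0.15 after GC correction. It was 0.24 among the libraries with a positive GC trend (KO 1 and KO 2 against WT 3) and 0.33 among the others (KO 3 against WT 1 and WT 2). Without KO 2 it was 0.19.

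Col4a2, described with its partner after the values were seen, was 12.94, 17.64 and 13.55 in KO and 10.64, 9.265 and 12.97 in WT. KO 1 lay just under WT 3, so the groups overlapped by that pair. The KO mean was 134% of that in WT, and the log2 difference was 0.39 with an interval of 0.05 to 0.74 (limma, adjusted p = 0.469). After GC correction the difference was 0.17, and without KO 2 it was 0.26. Both genes had their highest value in KO 2, the library with the strongest positive GC trend, and their lowest in WT 2, the library with the strongest negative one.

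Endothelial cells, which lay down type IV collagen around vessels, had markers that were higher in KO beside these genes. The summed endothelial list was 101 to 124 in KO and 86.4 to 91.8 in WT. Of its 8 members 7 averaged higher in KO, and in 5 every KO library exceeded every WT library, against 7.67% of all tested genes. None of them passed the test over all genes, and their median log2 difference was 0.32, or 0.20 after GC correction. Pecam1 was 40.8, 43.4 and 54.1 in KO and 35.7, 34.9 and 36.8 in WT (log2 difference 0.35, limma adjusted p = 0.469). Cdh5 was 21.3, 22.3 and 23.8 against 17.4, 18.1 and 17.8 (log2 difference 0.32, limma adjusted p = 0.469). The part of these markers in the Col4a1 and Col4a2 values was not tested. In RNA from whole tissue, fewer or more cells of a type and less or more RNA per cell cannot be told apart.

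The X-linked pair Col4a5 and Col4a6 encodes chains of other type IV networks, including that of smooth muscle and some epithelia. Col4a6 was 37.1, 34.4 and 37.3 in KO and 36.5, 44.2 and 33.4 in WT, and WT 2 stood above all others. This gave a log2 difference of -0.06 with an interval of -0.31 to 0.19 (limma, adjusted p = 0.811), -0.13 after GC correction and 0.05 without WT 2. Col4a5 was 15.1, 14.8 and 18.6 in KO and 17.7, 17.4 and 13.9 in WT. Its high libraries were KO 3, WT 1 and WT 2, those with a negative GC trend. The log2 difference was -0.01 with an interval of -0.30 to 0.27 (limma, adjusted p = 0.968), -0.03 after GC correction and 0.09 with that trend as a term.

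Col4a3 and Col4a4, the partner genes of the kidney and lung network, were at 0.0245 to 0.0690 in all 6 libraries, near the floor. Col4a3 was 0.0460, 0.0475 and 0.0525 in KO and 0.0676, 0.0690 and 0.0667 in WT, lower in every KO library but too low for the test. It shares 5.65% of its exonic bases with C430014B12Rik on the opposite strand. The TruSeq kit named in the labels does not mark strand, so reads of the 2 genes cannot be told apart.

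Col18a1 and Col15a1 encode proteoglycan collagens of basement membranes, and fragments of both are known to act on vessels. Col18a1 was 28.9, 42.7 and 24.5 in KO and 23.8, 22.2 and 34.4 in WT, the widest spread among the abundant members. KO 2 and WT 3 were the highest libraries, and only WT 3 made the groups overlap. In log2 units, KO minus WT was 0.23 with an interval of -0.29 to 0.76 (limma, adjusted p = 0.642), 0.01 after GC correction and 0.01 without KO 2. Col15a1 was 12.8, 14.7 and 15.3 in KO and 11.72, 13.82 and 12.99 in WT, with KO 1 below both of the higher WT libraries. Its log2 difference of 0.14 (interval -0.08 to 0.36, limma adjusted p = 0.528) was 0.00 after GC correction.

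Beaded collagen genes were slightly higher in KO 2 than elsewhere, and none passed the test. Of 4 tested members 3 averaged higher in KO, and the median log2 difference was 0.17, or 0.04 after GC correction. The class sum was 68.9, 92.4 and 75.9 in KO and 67.4, 67.4 and 73.9 in WT. KO 1 lay below WT 3.

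The type VI chain genes Col6a1 and Col6a2 lie together on chromosome 10. Col6a1 was 29.8, 39.6 and 31.1 in KO and 31.1, 28.4 and 32.4 in WT, so only KO 2 exceeded the WT libraries. KO minus WT in log2 units was 0.12 (limma, adjusted p = 0.654), -0.03 after GC correction and -0.01 without KO 2. Col6a2 was 19.3, 26.7 and 20.1 in KO and 17.65, 17.37 and 20.97 in WT, and WT 3 lay above KO 1 and KO 3. Its log2 difference was 0.22 with an interval of -0.09 to 0.53 (limma, adjusted p = 0.498), 0.11 after GC correction and 0.08 without KO 2.

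Col6a3, whose long chain completes the common type VI molecule, was 18.5, 23.3 and 23.2 in KO and 16.6, 19.5 and 18.8 in WT. KO 1 alone lay within the WT range. This gave a log2 difference of 0.23 with an interval of -0.03 to 0.48 (limma, adjusted p = 0.473), and 0.14 after GC correction. Col6a6, an alternative to that chain, was 1.15, 2.57 and 1.18 in KO and 1.77, 1.79 and 1.55 in WT, with KO 2 the highest and the other KO libraries the lowest. The log2 difference was -0.07 (limma, adjusted p = 0.871), -0.12 after GC correction and 0.05 without KO 1.

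The largest log2 difference among the 31 tested collagen genes was in the FACIT gene Col12a1, whose chain coats type I fibrils in tissue under tension. Col12a1 was 4.32, 4.68 and 6.48 in KO and 3.06, 4.23 and 3.33 in WT. Each KO value was above each WT value, with KO 3 far the highest. The KO mean of 5.16 ± 1.16 was 146% of the WT value of 3.54 ± 0.614 (SD, n = 3 per group). In log2 units, KO minus WT was 0.43 with an interval of 0.08 to 0.79 (limma, adjusted p = 0.469). It was 0.47 after GC correction (adjusted p = 0.529), and 0.35 and 0.70 among the libraries with a positive and a negative GC trend. Without KO 3 it was 0.28, and it stayed above 0 under all 17 alternatives.

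Of the 6 tested FACIT genes 4 averaged lower in KO, and the median log2 difference was -0.11, or -0.17 after GC correction, and -0.01 without KO 1 or without KO 3. Col14a1, a fibril-coating relative of Col12a1, was 8.83, 7.20 and 9.43 in KO and 9.66, 11.5 and 8.48 in WT. KO 2 was the lowest and WT 2 the highest. KO minus WT in log2 units was -0.20 with an interval of -0.50 to 0.11 (limma, adjusted p = 0.525), and -0.18 after GC correction.

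The type IX chains decorate type II fibrils in cartilage. Col9a1 was 9.21, 11.4 and 8.37 in KO and 10.95, 10.95 and 11.001 in WT, where the WT libraries were nearly identical and KO 2 lay above them. This gave a log2 difference of -0.18 with an interval of -0.43 to 0.07 (limma, adjusted p = 0.495), and -0.22 after GC correction. Col9a3 was 3.49, 6.28 and 3.83 in KO and 5.67, 4.42 and 4.87 in WT. KO 2 was again the highest, and the other KO libraries were below all WT libraries. Its log2 difference was -0.14, or -0.34 after GC correction, and 6.07% of its exonic bases lie opposite Tcfl5. Col9a2 was 2.84, 3.72 and 3.01 in KO and 2.89, 2.67 and 3.16 in WT, with a log2 difference of 0.10, or -0.16 after GC correction. Col19a1 was 1.34 to 2.43 in KO and 1.61 to 1.98 in WT (log2 difference -0.02 after GC correction).

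The 3 tested transmembrane genes had higher means in KO, with no gene past the test and no groups apart. Their median log2 difference was 0.16, or 0.09 after GC correction. Col23a1 was 10.8, 14.0 and 14.0 in KO and 12.40, 12.99 and 10.91 in WT, with KO 1 and WT 3 low. The log2 difference was 0.08 with an interval of -0.19 to 0.36 (limma, adjusted p = 0.753), and -0.02 after GC correction.

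Col13a1, a collagen gene of adhesion sites and neuromuscular junctions, was 1.46, 1.31 and 3.14 in KO and 1.19, 1.35 and 1.53 in WT. KO 3 stood apart from the other 5 libraries. In log2 units, KO minus WT was 0.28 (interval -0.21 to 0.78, limma adjusted p = 0.560), 0.09 after GC correction and 0.02 without KO 3. Col25a1, known from motor nerve targeting, was also highest in KO 3, at 1.26, 1.07 and 2.06 in KO and 1.23, 1.36 and 0.958 in WT. Its log2 difference was 0.16 (limma, adjusted p = 0.649), 0.235 after GC correction and -0.01 without KO 3. Col17a1, the hemidesmosome collagen gene, was 0.220, 0.179 and 0.238 in KO and 0.158, 0.169 and 0.189 in WT, too low for the test.

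Among the remaining genes, Col26a1 had all KO values above all WT values. It was 14.6, 14.6 and 15.7 in KO and 11.6, 12.1 and 14.2 in WT, with WT 3 close to the KO libraries. KO minus WT in log2 units was 0.23 with an interval of 0.02 to 0.44 (limma, adjusted p = 0.469). After GC correction it was 0.01, and it was 0.03 among the libraries with a positive GC trend and 0.38 among the others. Without WT 3 it was 0.31 (adjusted p = 0.135), the lowest adjusted p of any collagen gene under any alternative.

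Col8a1 and Col8a2 encode short chains that form hexagonal lattices under endothelium. Col8a1 was 6.29, 5.99 and 9.79 in KO and 5.15, 7.48 and 6.57 in WT, and KO 3 was the only KO library above the WT range. This gave a log2 difference of 0.16 (limma, adjusted p = 0.707), 0.22 after GC correction and -0.04 without KO 3. Col8a2 was 5.93, 6.96 and 7.25 in KO and 5.10, 5.55 and 6.09 in WT, with only KO 1 and WT 3 overlapping. Its log2 difference of 0.23 (limma, adjusted p = 0.469) was 0.03 after GC correction. Col7a1, the gene of anchoring fibrils, was 0.271, 0.563 and 0.538 in KO and 0.436, 0.315 and 0.448 in WT, too low for the test.

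Chains that assemble together can be compared by their ratio within a library, which removes any factor common to both. The narrowest ranges belonged to 2 pairs of neighbouring genes. Col6a1 over Col6a2 was 1.54, 1.49 and 1.55 in KO and 1.76, 1.64 and 1.55 in WT, a range of 1.19-fold. Col4a1 over Col4a2 was 1.85, 1.90 and 2.03 in KO and 2.13, 2.23 and 1.84 in WT, a range of 1.21-fold. WT 3 lay next to the KO libraries in both, and the groups overlapped.

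Col4a5 over Col4a6 ranged from 0.394 to 0.498 and Col1a1 over Col1a2 from 1.45 to 1.88, both with overlapping groups. Col3a1 over Col1a1, of types III and I and so not chains of the same molecule, ranged from 1.27 to 1.68. Col5a1 over Col5a2 ranged from 0.647 to 0.925, Col6a3 over Col6a1 from 0.534 to 0.744 and Col8a1 over Col8a2 from 0.861 to 1.35. Col11a1 over Col11a2 varied most, at 5.12, 1.74 and 5.60 in KO and 3.81, 3.85 and 2.87 in WT, with KO 2 the lowest. These ratios have numerators and denominators of unlike GC content, and the ratios of low genes rest on low values.

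One pair of tested genes had groups apart. Col9a1 over Col9a2 was 3.24, 3.06 and 2.78 in KO and 3.79, 4.10 and 3.48 in WT. All KO ratios lay below all WT ratios, at 3.03 ± 0.233 against 3.79 ± 0.311 (SD, n = 3 per group). Their transcripts have GC contents of 52.2% and 62.7%, and their log2 differences of -0.18 and 0.10 came to -0.22 and -0.16 after GC correction, nearer to each other. An exact permutation test of 3 against 3 libraries cannot go below p = 0.1, and none was run. Col4a3 over Col4a4 was also lower in each KO library, but both genes were near the floor. Groups were thus apart in 2 of the 11 ratios, counting that pair. Among single genes they were apart, in either direction, in 16.4% of all tested genes. No such share was computed over ratios of other genes.

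**Figure D3:**
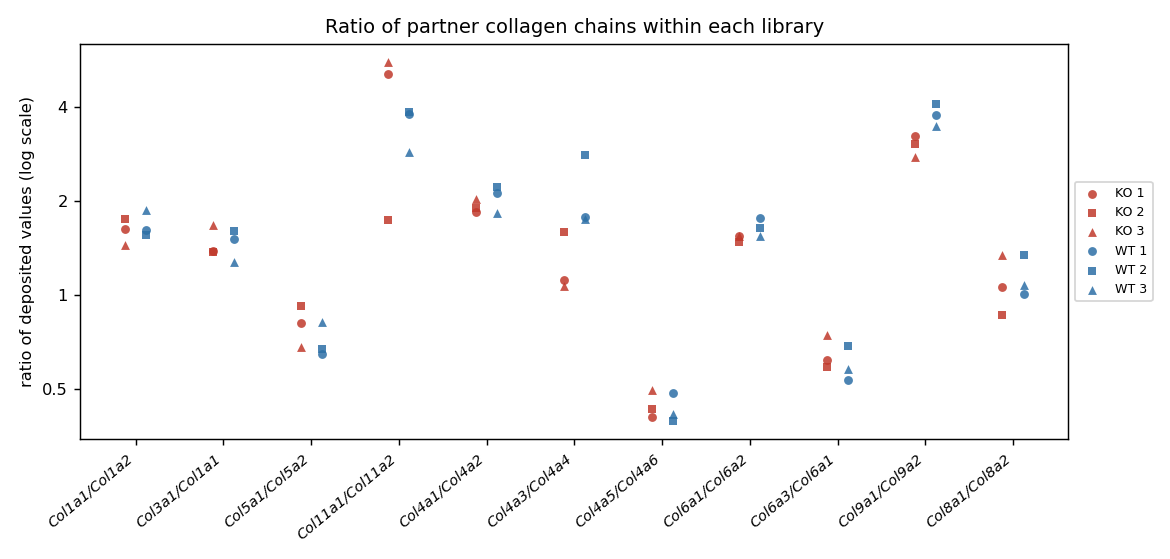
Ratio of the deposited values of partner collagen chains, and of Col3a1 over Col1a1, within each library. The axis is a log axis, with KO libraries in red and WT libraries in blue. Red and blue overlap in 9 of the 11 pairs, and lie apart for Col9a1 over Col9a2 and for the near-floor pair Col4a3 over Col4a4.

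The highest library was the same few across members. KO 2 had the highest value in 15 of the 31 tested genes and KO 3 in 13, while KO 1 was highest in 0. KO 1 was the lowest library in 9 genes, WT 1 in 8 and WT 2 in 6. The shares of all tested genes highest or lowest in each library were not computed, so these counts show nothing particular to collagens. The genes highest in KO 2 had a median GC content of 58.0%, and those highest in KO 3 had 52.5%. The remaining maxima were in WT 2 (Col14a1 and Col4a6) and WT 3 (Col1a1).

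Collagen transcripts were rich in GC. The median over the 31 tested genes was 55.7%, against 49.3% over the 13385 tested genes with a known value, and 26 of 31 lay above that median. Across these 31 genes, Spearman's rho between GC content and the deviation of a library from the gene's mean was 0.03, 0.58 and -0.40 in KO and -0.27, -0.67 and 0.68 in WT. Over all 13385 genes it was 0.50, 0.61 and -0.19 in KO and -0.56, -0.66 and 0.40 in WT. These are descriptions across genes of single libraries, and genes are not independent replicates. The collagens of KO 1 differed from its other genes in showing almost no such relation.

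**Figure D4:**
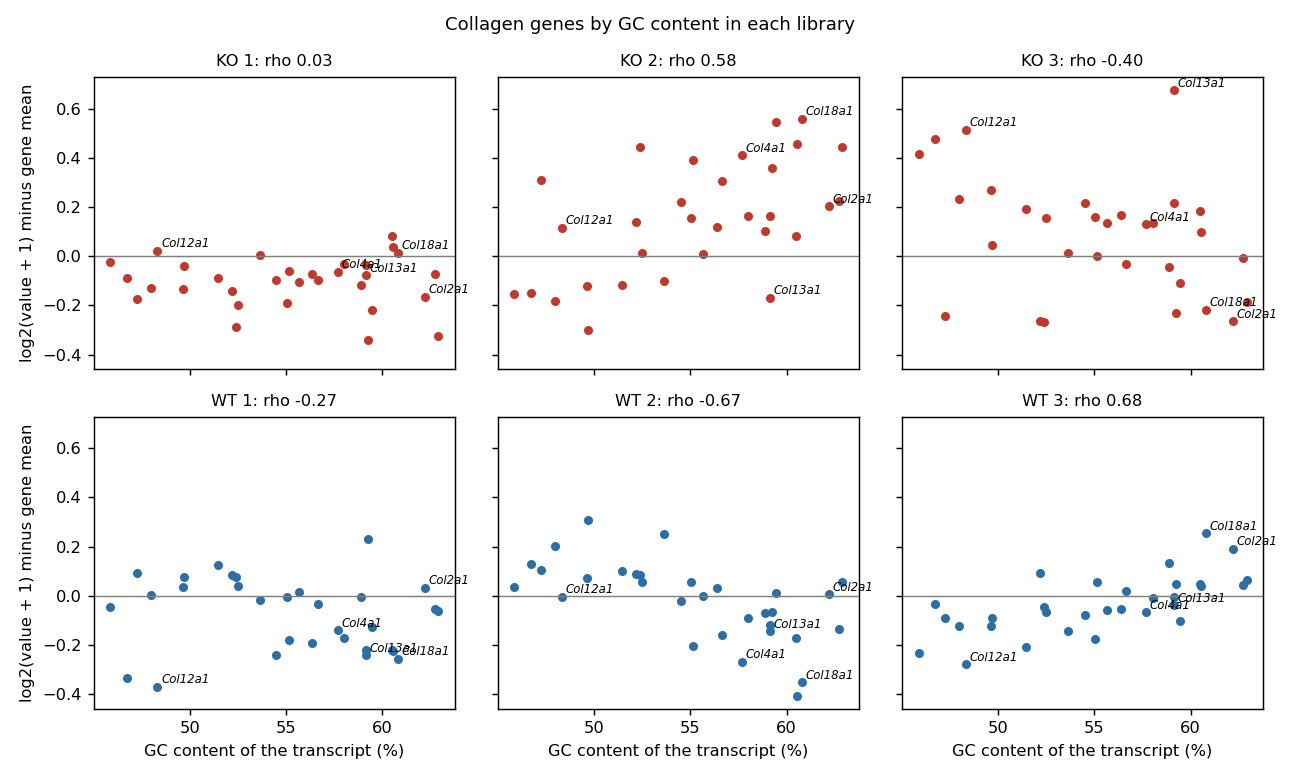
Deviation of each of the 31 tested collagen genes from its mean over the 6 libraries, in log2(value + 1), against the GC content of its transcript, with 1 panel per library (KO in red, WT in blue). The points slope up in KO 2 and WT 3 (rho 0.58 and 0.68), down in WT 2 and KO 3 (-0.67 and -0.40), and show little slope in KO 1 (0.03).

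Within the libraries with a positive trend the median collagen difference was 0.07, and within those with a negative trend it was 0.13. Over all tested genes these medians were 0.03 and 0.01. The second set compares 1 KO library with 2 WT libraries, and the first 2 with 1. Neither set allows a test of its own with replicates in both groups.

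Col18a1, Col6a1, Col6a2 and Col13a1 lie on chromosome 10, as Bicc1 does. P4ha1, Dcn and Tcf21, whose values are given below, lie on it as well. On a mixed strain background, alleles linked to the deletion can differ between groups, and their part in these values was not tested.

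Collagen chains are hydroxylated, folded, cut and crosslinked by a set of enzymes, and cells bind them through integrins and discoidin receptors. Of 45 such genes found in the files 35 were tested, and 0 passed (limma). Of these 25 averaged higher in KO and 10 lower, and the median log2 difference was 0.12, or 0.05 after GC correction. An unadjusted p under 0.05 was found for 9, all higher in KO (25.7%, where all tested genes gave 5.89% in that direction). Every KO library exceeded every WT library in 10 of the 35 (28.6%, against 7.67% of all tested genes), and in 0 was the order the opposite. After GC correction an unadjusted p under 0.05 was found for 3 higher (P4ha1, Plod1 and Itga1) and 1 lower (Creb3l1), where all tested genes gave 5.59% higher and 2.56% lower and had a median of 0.03. Creb3l1, the gene of a secretory pathway transcription factor, differed by -0.22 there and by -0.01 before correction.

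Of 13 tested hydroxylase genes and their partners, 9 averaged higher in KO. Plod1, which encodes a lysyl hydroxylase, was 4.39, 4.90 and 4.74 in KO and 3.19, 3.19 and 3.83 in WT. Each KO value was above each WT value, with a log2 difference of 0.37 (limma, adjusted p = 0.469) that was 0.32 after GC correction. P3h3, of the prolyl 3-hydroxylase family, was 7.86, 9.28 and 8.10 against 5.71, 5.98 and 7.21, also apart. Its log2 difference of 0.37 was 0.13 after GC correction. P3h1 was 9.21, 10.1 and 9.92 against 7.68, 8.26 and 8.86, with a log2 difference of 0.22 (limma, adjusted p = 0.469) and 0.08 after correction. P3h2, of the same family, was 7.84, 7.66 and 11.01 against 7.15, 6.85 and 6.91, with KO 3 high and the groups apart (log2 difference 0.29, limma adjusted p = 0.469, and 0.24 after GC correction).

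P4ha1, a catalytic subunit of prolyl 4-hydroxylase, was 16.99, 20.54 and 21.56 in KO and 17.99, 16.4 and 14.8 in WT, with KO 1 inside the WT range (log2 difference 0.25, limma adjusted p = 0.469, and 0.33 after GC correction). Its other subunit gene P4hb was 189.8, 199.6 and 175.5 in KO and 191.8, 177.6 and 196.6 in WT, with a log2 difference of -0.00, or -0.08 after GC correction. Plod2 was 15.2 to 18.6 in KO and 16.2 to 18.3 in WT, with a log2 difference of -0.05 that was 0.06 after GC correction.

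Among chaperone genes, Fkbp10 was 27.3, 26.3 and 25.2 in KO and 19.4, 21.4 and 24.8 in WT. KO 3 and WT 3 were close, and the log2 difference was 0.26 (limma, adjusted p = 0.469) and 0.10 after GC correction. Serpinh1, the collagen-specific chaperone gene HSP47, was 135, 145 and 110 in KO and 99.2, 105 and 155 in WT, with WT 3 the highest. Its log2 difference was 0.14 (limma, adjusted p = 0.721), 0.01 after GC correction, and 0.03 to 0.34 with 1 library left out. Bmp1, the protease gene for fibrillar propeptides, was 9.23, 10.9 and 9.82 against 7.44, 7.95 and 8.82, with all KO values above all WT values (log2 difference 0.28, or 0.13 after GC correction). The crosslinking enzyme gene Lox was 15.7, 19.9 and 19.2 against 20.89, 20.99 and 17.05, with a log2 difference of -0.10, or 0.00 after GC correction. Its relative Loxl1 was 4.66, 4.44 and 4.42 against 3.52, 3.50 and 4.29, with WT 3 just under the KO libraries. The groups were apart, and its log2 difference of 0.21 (limma, adjusted p = 0.469) was -0.02 after correction.

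Itga1, the alpha 1 chain of a collagen-binding integrin, was 12.1, 15.2 and 16.9 in KO and 10.3, 11.7 and 9.89 in WT. Every KO library exceeded every WT library, with KO 1 near WT 2. The log2 difference was 0.43 (limma, adjusted p = 0.469), and 0.54 after GC correction (adjusted p = 0.325). The endothelial markers above were also higher in KO, and their part in this value was not tested. Itga11, of a mesenchymal collagen receptor, was 1.23, 1.72 and 1.44 against 0.987, 1.02 and 1.20, with a log2 difference of 0.25, or 0.13 after correction.

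Mrc2, a receptor gene for collagen uptake, was 4.48, 5.33 and 4.57 against 2.95, 3.40 and 4.21, with a log2 difference of 0.37, or 0.18 after GC correction. The common integrin partner gene Itgb1 was 188, 194 and 209 in KO and 198, 212 and 188 in WT (log2 difference -0.02, or 0.08 after GC correction). The discoidin receptor gene Ddr1, expressed in epithelia, was 82.0, 121 and 69.3 against 70.3, 61.9 and 99.5, with KO 2 and WT 3 high. Its log2 difference was 0.22, 0.015 after GC correction and -0.01 without KO 2. Ddr2, its mesenchymal relative, was 11.6 to 13.6 in KO and 12.7 to 14.3 in WT (log2 difference -0.11, or -0.02 after GC correction).

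**Figure D5:**
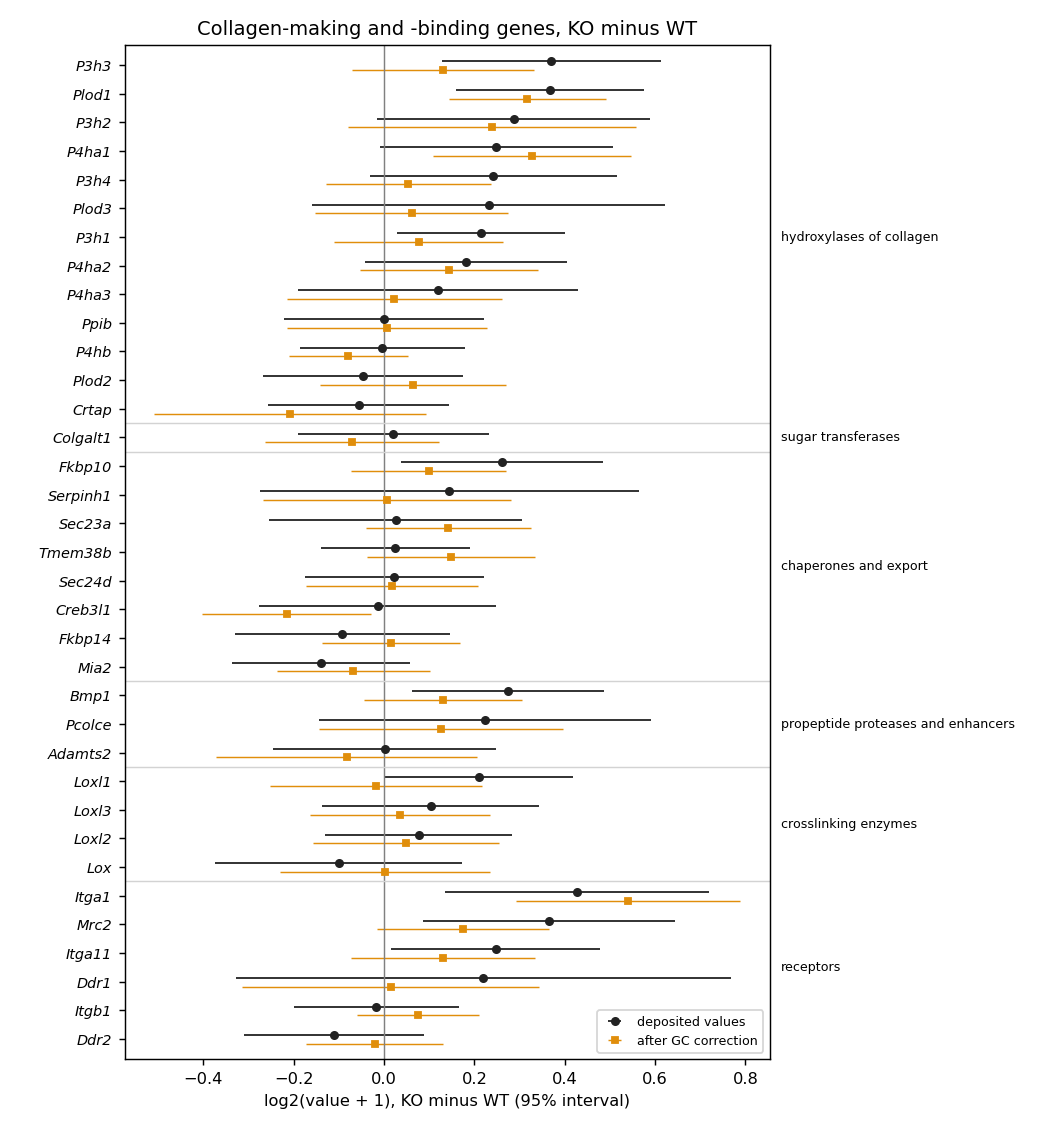
Difference between KO and WT in log2(value + 1) for the 35 tested collagen-making and collagen-binding genes by role, with 95% intervals from limma. Black circles are the deposited values and orange squares the values after GC correction. Most circles lie above 0, Itga1 at 0.43 is the highest, and 0 genes passed the adjusted threshold.

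Markers of the cells that make collagen were checked in the same libraries. The summed mesenchymal list was 515 to 565 in KO and 553 to 581 in WT, and 4 of its 9 tested genes averaged higher in KO, while Tbx18 was under 0.1. Its member Dcn, the gene of the collagen-binding proteoglycan decorin, was 37.6, 47.7 and 49.7 in KO and 71.2, 71.2 and 56.2 in WT, with every KO library below every WT library (log2 difference -0.55, limma adjusted p = 0.469, and -0.40 after GC correction). The receptor gene Pdgfrb went the other way, at 31.3, 28.8 and 32.1 against 23.02, 23.54 and 27.3, with the groups apart (log2 difference 0.31, limma adjusted p = 0.469, and 0.21 after GC correction). The transcription factor gene Tcf21 was 27.4, 17.1 and 30.97 against 15.5, 17.9 and 15.5, with KO 2 inside the WT range (log2 difference 0.56, limma adjusted p = 0.469). Of the 9, groups were apart with KO higher in 1 and lower in 2, against 7.67% and 8.77% of all tested genes. Pericyte and smooth muscle markers summed to 42.6 to 49.2 in KO and 45.3 to 49.6 in WT. Of their 5 tested members 4 averaged higher in KO, with a median log2 difference of 0.19, or 0.15 after GC correction. Rgs5, the most abundant, was the 1 lower, at 22.3 to 29.9 in KO and 26.1 to 35.7 in WT. Mesothelial markers summed to 36.7 to 51.9 in KO and 36.7 to 42.7 in WT, with 2 of 5 tested members higher in KO. Schwann cell and neural crest markers summed to 15.04 to 20.4 and 18.7 to 19.9, with all 4 tested members lower in KO. Bone markers summed to at most 0.328 in any library. Pancreatic epithelial markers, all 10 tested and with Pdx1 present, summed to 488 to 734 and 546 to 662. Leukocyte markers summed to 16.69 to 19.78 in KO and 13.21 to 16.67 in WT. Of the 4 tested, 3 averaged higher in KO, and in 2 every KO library exceeded every WT library, against 7.67% of all tested genes. Their median log2 difference was 0.33, or 0.24 after GC correction, and none passed the test. Erythroid markers summed to 1324 to 2320 and 1104 to 2063, with all 4 tested members higher in KO and no groups apart. The part of all these markers in the collagen values was not tested.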

How the data were processed

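Per the submitters' processing notes, reads were handled with CASAVA 1.82 and Bowtie 0.12.7 and the build was mm9. How reads were counted and normalized is not given in the sources used here. Per Ensembl gene and library, the authors deposited 1 normalized signal, used here without further scaling. Of 24389 identifiers 22624 (92.8%) matched a symbol. Depth in reads is unknown, so no counting interval is given.

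Differences were tested with limma 3.58.1 in R 4.3.3 (moderated, with a mean-variance trend, two-sided) on log2(value + 1), over 13911 genes with a mean of at least 1, and p-values were adjusted by Benjamini and Hochberg over all of them at 0.05. Fold changes on this scale understate those of low genes. The GC correction was a loess fit (span 0.3) in each library to the 13385 (96.2%) of tested genes that had a known transcript GC content in GENCODE M21. Other alternatives were 3 scalings, no filter or a stricter filter, a pseudocount of 0.1, robust moderation, the replicate number as a block, the sign of the GC trend as a term, and leaving out each library. DESeq2 was not run, since the files hold no counts.

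The members, lists and tests were chosen with earlier results of these data known. Library values are given for Bicc1, the 4 highest genes of each class, tested collagen genes with groups apart, and the 8 collagen-making or collagen-binding genes with the lowest p plus 8 others set by name. Col2a1, Col4a2, Col5a1, Col9a2, Col11a2, Col15a1, Col27a1, P3h2, Loxl1, Creb3l1, Pdgfrb, Tcf21, Cnmd and Rgs5, and the library values of Col4a3, were added after their values were seen. The markers Acan, Hapln1, Pecam1, Cdh5 and Dcn were picked from their lists by no rule set beforehand.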

Additional observations from a re-analysis of the deposited data

How the results depend on the processing

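No collagen gene passed the adjusted threshold under any of the 17 alternatives. Of 58 named genes tested, 33 kept 1 sign. Genes past the threshold numbered 2, 1 without the filter, 0 with the replicate block, 0 with GC correction and the block, and 1 to 8 when each library was left out. Genes at an unadjusted p of 0.05 numbered 1426, 2296 without the filter, 656 with the block, 739 with GC correction and the block, and 456 to 3108 with a library left out. For collagens this count was 4, 3 with GC correction, 2 with GC correction and the block, and 0 to 6 with a library left out. The 3 were 1 higher and 2 lower in KO. Collagens with all KO values above all WT values numbered 3, 1 after GC correction, and 3 to 9 with a library left out. Those below numbered 0, 1 under median-ratio scaling, 1 without the filter, 2 after GC correction, and 0 to 5 with a library left out. Leaving out a library cannot lower such a count among the same genes. The share of all genes with groups apart was not computed for these settings. The collagen median of 0.10 became -0.020 after GC correction with or without the block. That of basement membrane genes, 0.19, became 0.0075 there and 0.075 without the filter, and that of the other collagens, 0.23, became 0.031. Signs turned after GC correction, with or without the block, in Col1a2 (-0.093), Col23a1 (-0.021), Col27a1 (-0.054), Col6a1 (-0.028), Col9a2 (-0.16), Itgb1 (0.076), Lox (0.0025), Loxl1 (-0.017) and Plod2 (0.065). They turned with the sign of the GC trend as a term in Col11a1 (0.049), Col3a1 (0.039), Col4a5 (0.091), Itgb1 (0.026) and Serpinh1 (-0.012). Scaling turned Col1a2 by median ratios (-0.00064) and Col5a2 by median ratios (-0.018), totals (-0.0020) or upper quartiles (-0.0050). Leaving out 1 library gave Col11a1 -0.18 to 0.033, Col11a2 -0.082 to 0.11, Col19a1 -0.24 to 0.032, Col1a1 -0.10 to 0.016, Col1a2 -0.034 to 0.087, Col25a1 -0.0090 to 0.27, Col27a1 -0.090 to 0.29, Col3a1 -0.10 to 0.073, Col4a5 -0.12 to 0.048, Col4a6 -0.15 to 0.051, Col5a2 -0.12 to 0.079, Col6a1 -0.0077 to 0.19, Col6a6 -0.32 to 0.050, Col8a1 -0.039 to 0.27, Acan -0.0022 to 0.26, Creb3l1 -0.12 to 0.044, Ddr1 -0.0057 to 0.42, Itgb1 -0.060 to 0.029, P4hb -0.046 to 0.046 and Plod2 -0.11 to 0.032. The cause of these changes was not tested. Same-numbered libraries deviated from their group means with correlations of -0.22, -0.40 and -0.64. The libraries also differed in GC trend, so these correlations cannot tell whether same-numbered libraries shared a litter or day. With the block Bicc1 kept its log2 difference of -1.89 but not its call (limma, adjusted p = 0.088). DESeq2 was not run.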
